A study of Mus musculus with 24 samples.

Results

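The genes described here encode fibronectin (Fn1) and 9 secreted proteins of the extracellular matrix, most of them matricellular: thrombospondin-1 (Thbs1), Cyr61 and Ctgf (now called Ccn1 and Ccn2), tenascin-C (Tnc), Sparc, periostin (Postn), osteopontin (Spp1), Tgfbi and Ecm1. They were taken by symbol, 10 of the 54429 gene symbols in the deposited tables. Their levels came from RNA-seq of macrophages grown from the femur and tibia marrow of C57BL/6N mice that lacked MK2 (KO) or had it (WT). The KO M2 and WT M2 cells were treated with murine interleukin-4 (IL-4) at 10 ng/ml and collected after 24 h, while the KO M0 and WT M0 cells had no stimulus. Marrow cells of every group had first been cultured with murine M-CSF at 10 ng/ml and were detached and replated on day 7. Each of these 4 groups held 6 libraries, 24 in all. The sources used here do not give the part of the MK2 gene that was deleted, or whether the 6 replicates of a group were separate animals, so the tests speak of variation between libraries, which may be technical.

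Fibronectin is the adhesive glycoprotein that cells assemble into fibrils and bind through integrins. Matricellular proteins are secreted into the same matrix but act less as scaffold than as signals, binding collagens, growth factors, integrins, CD36, CD44 and CD47 to change how cells attach, migrate and repair tissue. Fibroblasts and other connective tissue cells make many of them, while fibronectin, osteopontin, thrombospondin-1 and Tgfbi are also known from macrophages. MK2, a kinase downstream of p38, controls the stability and translation of messenger RNAs with AU-rich elements through the proteins that bind them. IL-4 drives macrophages to the alternative, or M2, state, of which raised fibronectin is a known feature.

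The total count per library lay between 7893809 and 13492507. Mapkapk2, the gene of MK2, was at 47.8 to 60.7 CPM (counts scaled to a common library size) in KO M2, 54.7 to 63.4 in KO M0, 113 to 139 in WT M2 and 100.3 to 138 in WT M0, so libraries labelled KO lay below those labelled WT and none was at 0. The 10 macrophage markers listed were detected in every group. They summed to 11420 to 13820 CPM in KO M2, 12750 to 15730 in KO M0, 14220 to 18490 in WT M2 and 14910 to 20370 in WT M0. KO M2 thus lay below WT M2 without overlap, while KO M0 and WT M0 overlapped. Most of this sum was Lyz2, which averaged 8088 CPM in KO M2, 8678 in KO M0, 10170 in WT M2 and 11330 in WT M0. The summed level of 16 markers of stromal cells and fibroblasts was 10.9 to 25.7 CPM in KO M2, 10.6 to 33.3 in KO M0, 145 to 235 in WT M2 and 147 to 238 in WT M0. No stromal marker was at 0 throughout a group apart from Lum in KO M0. Replicates 1 to 3 and 4 to 6 carry separate runs of library numbers in the labels, except for 3 libraries numbered apart from both runs. These are WT M0 replicate 3, WT M2 replicate 2 and KO M2 replicate 2, and they were kept with replicates 1 to 3. Replicates 1 to 3 and 4 to 6 differed for several of the genes below, as did WT replicates 1 and 2 from the other WT replicates. Among the libraries of WT replicates 1 and 2, only WT M2 replicate 2 was numbered apart.

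Of the 10 genes, 6 were lower in KO than in WT both with and without IL-4, namely Thbs1, Cyr61, Ctgf, Tnc, Sparc and Postn. Fn1 (higher), Ctgf (lower) and Tgfbi (lower) changed with IL-4 in both genotypes, Ctgf thus following both. Fn1 passed the test between genotypes without IL-4 but not with it, Cyr61 passed the test for IL-4 in WT but not in KO, and Spp1 and Ecm1 passed in no comparison in the fit over all replicates, which had no block. Changes are given as log2 fold change ± SE. Calls were made by edgeR's quasi-likelihood test, with the Benjamini-Hochberg adjusted p over all 12797 genes tested held below 0.05. With IL-4, MK2 loss lowered 6 of the 10 genes and raised 0, where 4.59% of all genes tested were called (3.09% lower and 1.51% higher). Without IL-4 it lowered 7 and raised 0, where 4.52% of all genes were called (3.42% lower and 1.10% higher). The median log2 fold change of the 10 genes was -2.07 with IL-4 and -2.31 without it, against 0.01 and -0.01 over all genes. IL-4 changed 3 of the 10 genes in KO, 1 higher and 2 lower, where 23.6% of all genes were called (12.2% higher and 11.4% lower). In WT it changed 4, 1 higher and 3 lower, where 16.4% of all genes were called (8.49% higher and 7.95% lower). The median log2 fold change with IL-4 was -0.11 in KO and -0.27 in WT, against 0.00 and -0.02 over all genes. All 10 genes passed the filter on low counts, but Cyr61 passed through its WT libraries, since it reached 10 counts in 1 of 6 KO M2 and 1 of 6 KO M0 libraries.

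**Figure D1:**
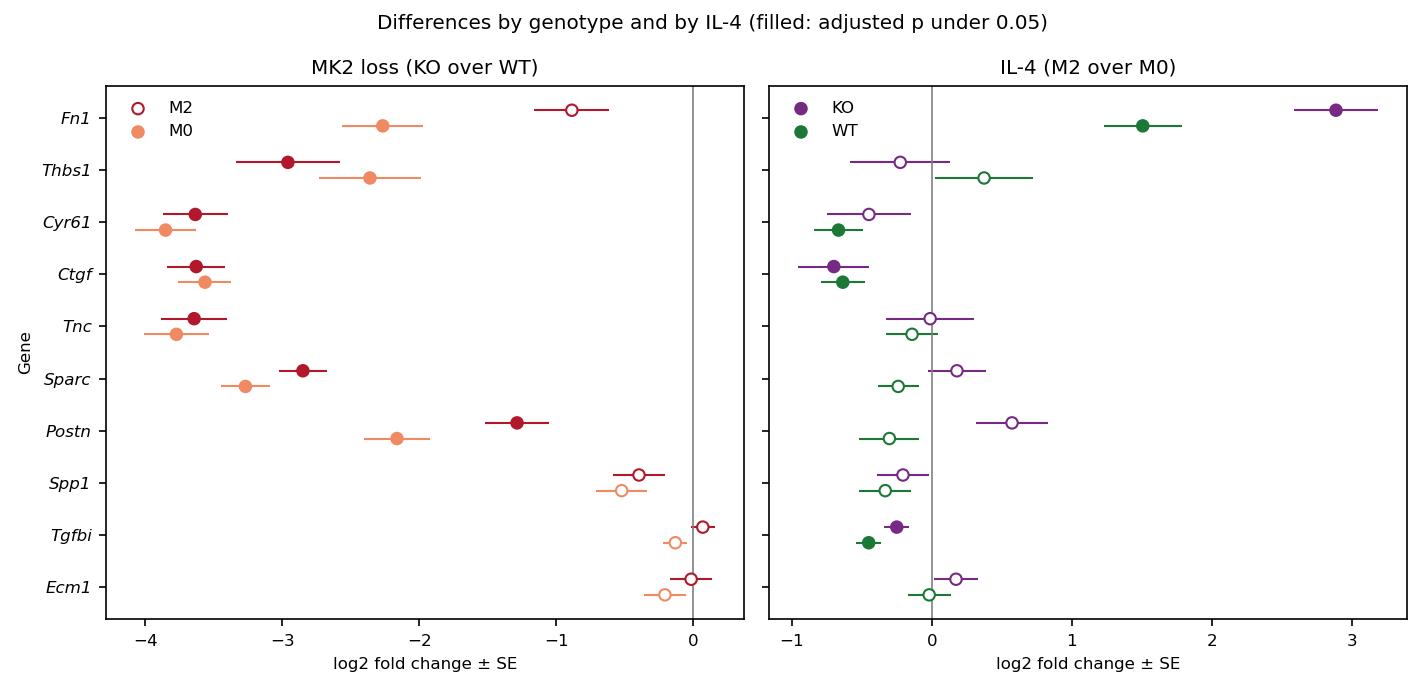
Log2 fold changes of the 10 genes (x axis, with SE) for MK2 loss (left, KO over WT, in M2 and M0 cells) and for IL-4 (right, M2 over M0, in KO and WT cells), with filled points for an adjusted p below 0.05. The 6 genes from Thbs1 to Postn lie left of 0 in both states, and Fn1 stands apart on the right at 2.89 in KO and 1.51 in WT.

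Scaled for gene length in the deposited GETMM values, which allow levels of different genes to be compared, Spp1 was the most abundant of the 10 in every group. It was at 2644 ± 297 GETMM in KO M2, 3087 ± 440 in KO M0, 3481 ± 1027 in WT M2 and 4370 ± 1284 in WT M0 (SD, n = 6 each), 37.2, 48.4, 19.0 and 31 times the next gene. That next gene was Ecm1 in both KO groups and Thbs1 in both WT groups. Tnc was the lowest in every group, from 0.324 ± 0.136 GETMM in KO M2 to 4.50 ± 0.9001 in WT M0, and in KO M2 and KO M0 its range overlapped that of Cyr61, the next lowest. In KO M2 the GETMM order after Spp1 was Ecm1, Fn1, Thbs1, Tgfbi, Sparc, Postn, Ctgf, Cyr61 and Tnc, and in WT M2 it was Thbs1, Fn1, Ecm1, Sparc, Tgfbi, Ctgf, Cyr61, Postn and Tnc. In KO M2 the neighbours from Sparc down overlapped, as did Ecm1 with Fn1. In WT M2 the neighbours that did not overlap were Spp1 and Thbs1, Ecm1 and Sparc, and Ctgf and Cyr61.

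**Figure D2:**
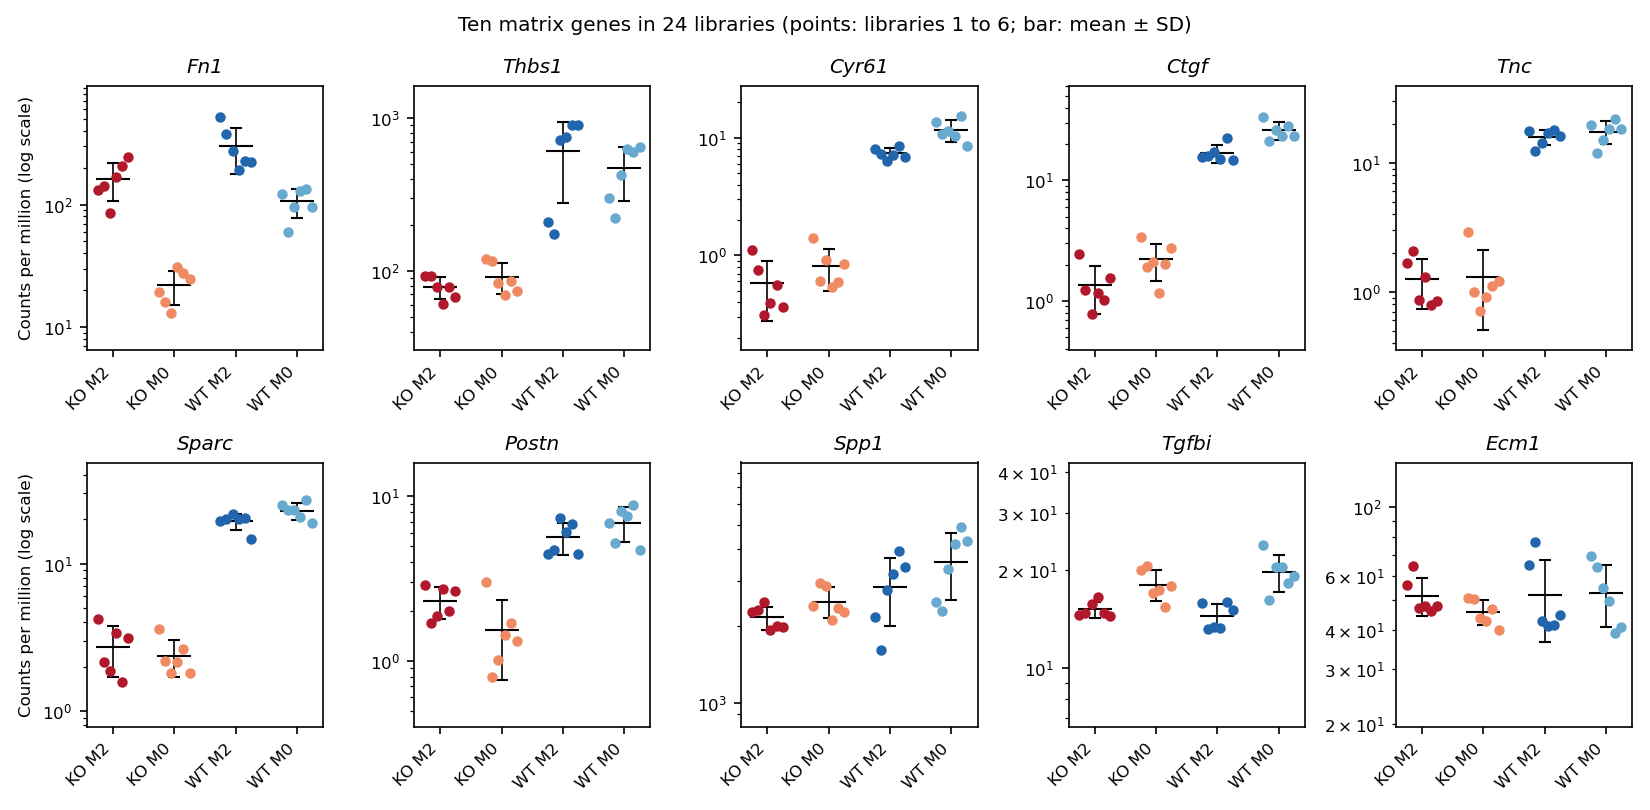
CPM (y axis, log scale, a separate range for each gene) of the 10 genes in the libraries of KO M2, KO M0, WT M2 and WT M0, one point per library in order of replicate number, with bars for mean ± SD. Both KO groups lie below both WT groups for Thbs1, Cyr61, Ctgf, Tnc, Sparc and Postn, while all 4 groups overlap for Ecm1.

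Fibronectin rose with IL-4 in both genotypes and was lower in KO cells that had no IL-4. Fn1 (chromosome 1, 71585520 to 71653200 on mm10, minus strand) was at 131, 142, 85.7, 168, 206 and 246 CPM in KO M2 replicates 1 to 6 and at 19.5, 16.1, 13.01, 30.8, 27.7 and 24.7 CPM in KO M0. In WT M2 it was at 515, 377, 274, 193, 225 and 222 CPM and in WT M0 at 121, 59.7, 94.97, 130.1, 133 and 96.0 CPM. Every M2 library of a genotype lay above its M0 libraries, and KO M0 lay below WT M0 without overlap, while KO M2 and WT M2 overlapped. The rise with IL-4 was 7.39-fold in KO (2.89 ± 0.30 as log2 fold change ± SE, adjusted p = 2.02e-07, edgeR) and 2.84-fold in WT (1.51 ± 0.28, adjusted p = 5.21e-04). Libraries of M2 and M0 cells share an LS number in the labels, called a culture number here, whose meaning the sources do not give. The ratio of M2 to M0 within a number was 5.46 to 9.96 in the 6 KO cultures and 1.48 to 6.32 in the 6 WT cultures. Without IL-4, Fn1 was 4.81-fold lower in KO (-2.27 ± 0.30, adjusted p = 1.54e-05).

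With IL-4, Fn1 did not pass the test between genotypes (log2 fold change -0.89 ± 0.27 SE, adjusted p = 0.0728, edgeR), and this value depended on the replicates. In replicates 1 to 3 alone it was lower in KO (log2 fold change -1.70, adjusted p = 0.00952), and in replicates 4 to 6 alone the log2 fold change was -0.05 (adjusted p = 0.927). It passed without KO M2 replicate 6 (log2 fold change -1.04, adjusted p = 0.0362). The response of Fn1 to IL-4 in WT had a log2 fold change of 2.10 in replicates 1 to 3 alone and of 0.83 in replicates 4 to 6 alone, and in KO it was 2.88 in both sets. Between genotypes the IL-4 responses differed by 1.38 on the log2 scale (SE 0.40), which did not pass (adjusted p = 1.00, edgeR). Adjusted over all genes, 0 of 12797 genes passed this test with edgeR (390 at an unadjusted p below 0.05, Fn1 and Postn among them), 1 with DESeq2 (349 unadjusted) and 3 with limma (416 unadjusted). In replicates 4 to 6 alone the difference in Fn1 passed (2.05, adjusted p = 0.0142). An antisense gene, Apol7d, shares 292 exonic bases with Fn1, but its counts came to 0.02% of those of Fn1, and for no other of the 10 genes did an overlapping gene reach more than 0.431% of its counts.

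**Figure D3:**
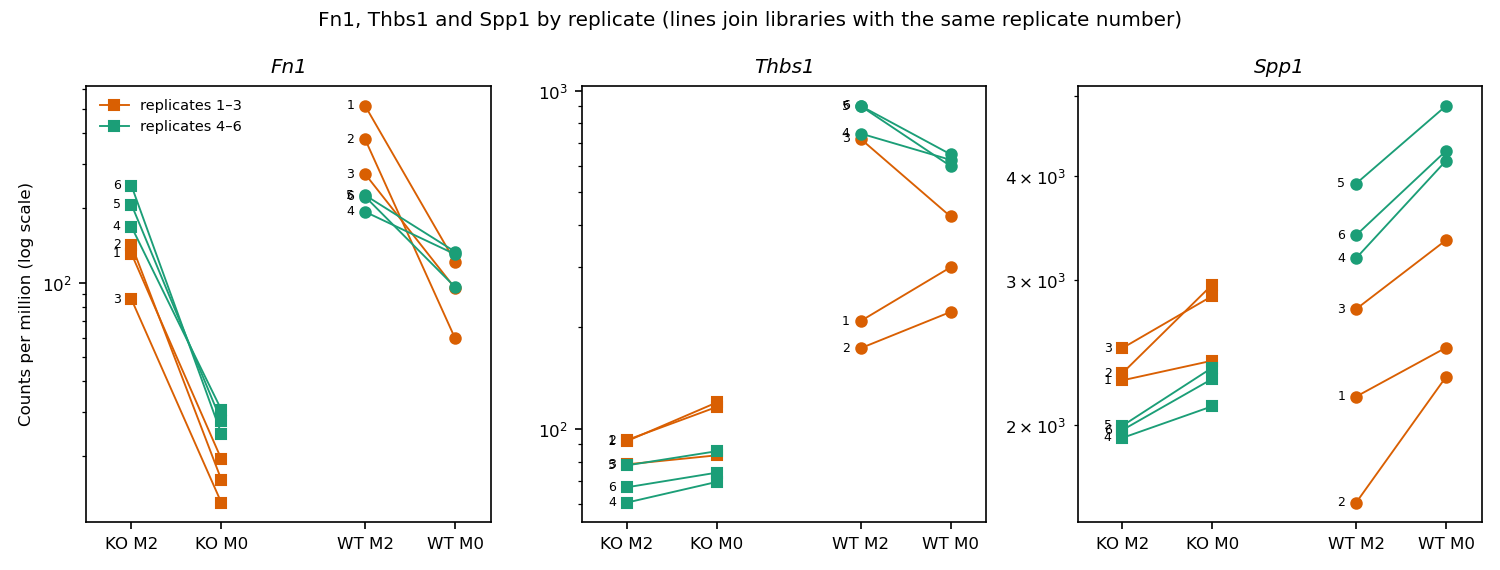
CPM (y axis, log scale) of Fn1, Thbs1 and Spp1, with lines joining the M2 and the M0 library of a replicate number in KO (squares, left) and WT (circles, right), replicates 1 to 3 in orange and 4 to 6 in green, and numbers giving the replicate. For Thbs1 and Spp1, WT replicates 1 and 2 lie lowest among WT cells, and in WT M2 cells Fn1 is highest in replicates 1 to 3, at 515, 377 and 274 CPM.

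Thrombospondin-1, a trimeric glycoprotein that binds CD36 and CD47 and activates latent TGF-beta, was lower in KO in both states and passed no test for IL-4 over all replicates. Thbs1 (chromosome 2, 118111876 to 118127133 on mm10, plus strand) was at 92.0, 92.7, 78.5, 60.5, 78.0 and 67.2 CPM in KO M2 replicates 1 to 6, and in KO M0 at 119.7, 116, 83.5, 69.7, 85.9 and 74.2 CPM. In WT M2 it was at 208, 173, 719.7, 746, 899.9 and 901 CPM, and in WT M0 at 300.3, 222, 424, 624, 598 and 648 CPM. Every KO library lay below every WT library, and among WT libraries replicates 1 and 2 were the lowest. With IL-4, Thbs1 was 7.77-fold lower in KO (-2.96 ± 0.38, adjusted p = 1.44e-05, edgeR), and without IL-4 it was 5.13-fold lower (-2.36 ± 0.37, adjusted p = 2.04e-04). In replicates 4 to 6 alone these log2 fold changes were -3.63 (adjusted p = 6.73e-09) and -3.01 (adjusted p = 1.88e-08), and in replicates 1 to 3 alone, which hold the low WT libraries, -2.07 (adjusted p = 0.0928) and -1.54 (adjusted p = 0.169). Without the WT libraries of cultures 1 and 2 (WT replicates 1 and 2), a fit chosen after seeing the data, they were -3.38 (adjusted p = 6.74e-11) and -2.65 (adjusted p = 1.08e-09). The log2 fold change with IL-4 was -0.23 in KO (SE 0.36, adjusted p = 0.729) and 0.37 in WT (SE 0.35, adjusted p = 0.521). In replicates 4 to 6 alone Thbs1 rose with IL-4 in WT (0.45, adjusted p = 0.0114), and in replicates 1 to 3 alone the value was 0.24 (adjusted p = 0.863). Within culture numbers the M2 level was lower than the M0 level in 6 of 6 KO cultures, while it was higher in 4 and lower in 2 of the WT cultures, cultures 1 and 2 being the lower ones. Platelets also hold thrombospondin, and the sum of 8 megakaryocyte and platelet markers was 84.3 to 152 CPM in KO M2, 129 to 145 in KO M0, 133 to 184 in WT M2 and 111 to 196 in WT M0. Most of this sum was Pf4, with means of 105, 117, 136 and 136 CPM in the same order. Ppbp, at means of 3.28, 3.08, 8.06 and 7.52 CPM, was lower in KO. Of the 8 markers 5 were tested. MK2 loss lowered 2 with IL-4 and 1 without it and raised 0, where 4.59% and 4.52% of all genes were called. The part of platelets in the result was not tested.

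The genes for the CCN proteins Cyr61 and Ctgf, matricellular proteins that bind integrins and heparan sulphate and are known targets of YAP and SRF in connective tissue cells, had the largest relative deficit in KO together with Tnc. Cyr61 (Ccn1 in the annotation, chromosome 3, 145646976 to 145649981, minus strand) was at 0.314 to 1.12 CPM (median 0.476) in KO M2, 0.542 to 1.39 (0.721) in KO M0, 6.37 to 8.47 (7.20) in WT M2 and 8.52 to 15.3 (11.1) in WT M0. The KO counts behind these values were 3 to 10 per library in M2 and 6 to 12 in M0, so a single KO value is coarse, and the genotypes did not overlap. Cyr61 was 12.4-fold lower in KO with IL-4 (-3.63 ± 0.24, adjusted p = 2.88e-11, edgeR) and 14.4-fold lower without it (-3.85 ± 0.22, adjusted p = 2.26e-12). IL-4 lowered Cyr61 in WT, where M2 and M0 libraries did not overlap (-0.67 ± 0.17, adjusted p = 0.00838). The value in KO was -0.45 (SE 0.30, adjusted p = 0.358), the difference between genotypes being 0.22 (SE 0.36, adjusted p = 1.00).

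Ctgf (Ccn2, chromosome 10, 24595442 to 24598683, plus strand) was at 0.784 to 2.45 CPM (median 1.20) in KO M2, 1.17 to 3.36 (2.08) in KO M0, 14.7 to 22.3 (15.7) in WT M2 and 21.1 to 33.6 (24.8) in WT M0. The genotypes did not overlap, and M2 and M0 ranges did so in either genotype. In KO, Ctgf was 12.4-fold lower with IL-4 (-3.63 ± 0.21, adjusted p = 4.57e-12, edgeR) and 11.8-fold lower without it (-3.56 ± 0.19, adjusted p = 1.00e-12). With IL-4 Ctgf fell in KO (-0.70 ± 0.25, adjusted p = 0.0460) and in WT (-0.64 ± 0.16, adjusted p = 0.00576). The call in KO is borderline, since leaving out a single library ended it in 18 of 24 cases, with an adjusted p of up to 0.138 (without KO M0 replicate 1). It held without WT M0 replicate 1, 2 or 4, WT M2 replicate 5, KO M0 replicate 4 or KO M2 replicate 1. For both genes the WT calls for IL-4 were lost without the WT libraries of cultures 1 and 2, with log2 fold changes of -0.67 (Cyr61, adjusted p = 0.0687) and -0.56 (Ctgf, adjusted p = 0.0753). They were also lost in either set of replicates alone, at -0.70 (adjusted p = 0.165) in 1 to 3 and -0.61 (adjusted p = 0.0516) in 4 to 6 for Cyr61, and at -0.71 (adjusted p = 0.120) and -0.54 (adjusted p = 0.0575) for Ctgf. In KO the value of Ctgf was -0.77 (adjusted p = 0.223) in replicates 1 to 3 and -0.64 (adjusted p = 0.254) in 4 to 6.

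Tenascin-C, a hexameric glycoprotein of wounds and tumour stroma, was present at low levels in KO. Tnc (chromosome 4, 63959785 to 64047015, minus strand) was at 0.785 to 2.07 CPM (median 1.08) in KO M2, 0.706 to 2.90 (1.05) in KO M0, 12.4 to 17.9 (16.6) in WT M2 and 11.9 to 21.9 (18.3) in WT M0. KO and WT libraries were far apart, and M2 and M0 libraries overlapped in both genotypes. The gene was 12.5-fold lower in KO with IL-4 (-3.64 ± 0.24, adjusted p = 4.34e-11, edgeR) and 13.7-fold lower without it (-3.77 ± 0.24, adjusted p = 1.32e-11). With IL-4 it did not pass in KO (-0.01 ± 0.31, adjusted p = 0.986) or in WT (-0.14 ± 0.18, adjusted p = 0.655).

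Sparc, a collagen-binding protein also called osteonectin, was also lower in KO in both states. Sparc (chromosome 11, 55394500 to 55423183, minus strand) was at 1.57 to 4.24 CPM (median 2.65) in KO M2, 1.805 to 3.596 (2.18) in KO M0, 14.7 to 21.6 (20.02) in WT M2 and 18.8 to 27.0 (23.0) in WT M0. It was 7.20-fold lower in KO with IL-4 (-2.85 ± 0.18, adjusted p = 1.50e-11, edgeR) and 9.63-fold lower without it (-3.27 ± 0.18, adjusted p = 1.00e-12), with no overlap of the genotypes. The log2 fold change with IL-4 was 0.18 in KO (SE 0.21, adjusted p = 0.620) and -0.24 in WT (SE 0.15, adjusted p = 0.291). In WT, Sparc was lower with IL-4 in 6 of 6 cultures.

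Periostin and Tgfbi share the fasciclin domain, bind collagen and integrins and are induced by TGF-beta in connective tissue. Postn passed the test between genotypes in both states and Tgfbi in neither. Postn (chromosome 3, 54361109 to 54391037, plus strand) was at 1.70 to 2.90 CPM (median 2.33) in KO M2, 0.800 to 3.02 (1.38) in KO M0, 4.46 to 7.31 (5.35) in WT M2 and 4.72 to 8.86 (7.24) in WT M0. It was 2.44-fold lower in KO with IL-4 (-1.29 ± 0.23, adjusted p = 5.53e-04, edgeR) and 4.48-fold lower without it (-2.16 ± 0.24, adjusted p = 3.58e-07), and no KO library reached the WT range of its state. In replicates 1 to 3 alone the value with IL-4 was -1.35 (adjusted p = 0.159), and in replicates 4 to 6 alone -1.21 (adjusted p = 0.00515). With IL-4, Postn had a log2 fold change of 0.57 in KO (SE 0.26, adjusted p = 0.114), where it was higher in 5 of 6 cultures, and of -0.30 in WT (SE 0.21, adjusted p = 0.374), where it was lower in 6 of 6. Without KO M0 replicate 1 the KO value passed (0.85, adjusted p = 0.00976). The difference between the 2 responses was 0.88 (SE 0.33) and did not pass (adjusted p = 1.00, edgeR).

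Tgfbi (chromosome 13, 56609523 to 56639562, plus strand) was at 14.4 to 16.6 CPM (median 14.8) in KO M2, 15.4 to 20.6 (17.6) in KO M0, 13.2 to 15.9 (14.2) in WT M2 and 16.1 to 23.8 (19.8) in WT M0. It fell with IL-4, 1.19-fold in KO (-0.25 ± 0.09, adjusted p = 0.0401, edgeR) and 1.37-fold in WT (-0.45 ± 0.09, adjusted p = 6.43e-04). The M2 level was below the M0 level in 6 of 6 cultures of each genotype. The ranges overlapped in KO and did not in WT, and in KO the call was lost on leaving out any of 7 libraries (KO M0 replicates 1, 2 and 6 and KO M2 replicates 1, 2, 5 and 6), with an adjusted p of up to 0.114 (without KO M0 replicate 2). The KO call was also lost in replicates 1 to 3 alone (-0.36, adjusted p = 0.151) and in 4 to 6 alone (-0.15, adjusted p = 0.356). In WT Tgfbi missed the threshold in replicates 1 to 3 alone (-0.49, adjusted p = 0.0684) and passed in 4 to 6 alone (-0.39, adjusted p = 0.0169). Between KO and WT the log2 fold change was 0.07 with IL-4 (SE 0.09, adjusted p = 0.879) and -0.13 without it (SE 0.09, adjusted p = 0.523).

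The promoters of genes lower in KO in both states are shown for Cyr61, Tnc, Sparc and Postn, and that of Tgfbi, which followed IL-4 alone, is shown for comparison. RefSeq windows on GRCm38.p6, the assembly of mm10, were listed for 7 of the 10 genes, each running from 250 bases before the transcription start to 50 bases after it. Tnc, Postn and Spp1 each had 2 windows listed, and the window nearest to a principal transcript start in GENCODE was used. The windows are written 5′ to 3′ on the strand of the gene, with capitals for matches to the motifs searched.
Cyr61 (Ccn1), chr3:145649936-145650235, minus strand: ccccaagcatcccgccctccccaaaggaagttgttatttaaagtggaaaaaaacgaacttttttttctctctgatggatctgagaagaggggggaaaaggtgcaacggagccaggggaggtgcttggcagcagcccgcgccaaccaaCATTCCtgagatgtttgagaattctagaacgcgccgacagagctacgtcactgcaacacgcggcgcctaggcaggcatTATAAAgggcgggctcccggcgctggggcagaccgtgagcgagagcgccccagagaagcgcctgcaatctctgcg
Tnc, chr4:64046966-64047265, minus strand: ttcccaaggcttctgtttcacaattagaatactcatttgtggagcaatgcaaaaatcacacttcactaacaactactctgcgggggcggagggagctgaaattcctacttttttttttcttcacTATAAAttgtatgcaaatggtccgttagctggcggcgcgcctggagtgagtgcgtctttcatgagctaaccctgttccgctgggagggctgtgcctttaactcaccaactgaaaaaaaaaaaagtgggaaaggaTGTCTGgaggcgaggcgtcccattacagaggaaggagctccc
Sparc, chr11:55420031-55420330, minus strand: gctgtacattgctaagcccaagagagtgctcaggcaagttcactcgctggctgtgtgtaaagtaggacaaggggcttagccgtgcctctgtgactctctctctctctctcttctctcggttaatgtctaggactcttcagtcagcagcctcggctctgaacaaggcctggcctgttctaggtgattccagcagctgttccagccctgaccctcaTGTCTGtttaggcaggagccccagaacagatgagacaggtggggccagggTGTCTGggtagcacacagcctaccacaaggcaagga
Postn, chr3:54360857-54361156, plus strand: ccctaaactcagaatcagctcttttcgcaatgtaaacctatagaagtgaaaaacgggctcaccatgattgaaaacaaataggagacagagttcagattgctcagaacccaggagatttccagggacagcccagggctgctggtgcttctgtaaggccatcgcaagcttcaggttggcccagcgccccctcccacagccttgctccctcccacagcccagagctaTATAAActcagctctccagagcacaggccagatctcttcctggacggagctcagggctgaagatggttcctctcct
Tgfbi, chr13:56609336-56609635, plus strand: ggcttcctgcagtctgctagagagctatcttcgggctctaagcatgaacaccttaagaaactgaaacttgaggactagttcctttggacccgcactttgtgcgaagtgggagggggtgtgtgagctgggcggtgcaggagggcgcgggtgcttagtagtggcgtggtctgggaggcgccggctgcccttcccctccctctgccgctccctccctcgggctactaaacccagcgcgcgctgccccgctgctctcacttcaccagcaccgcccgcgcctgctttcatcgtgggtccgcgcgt
Motifs were searched on both strands, and no matches in these 5 windows overlapped. The TEAD motif GGAATG, found in 14.7% of the 32851 windows listed, occurred once, in Cyr61, read as CATTCC on the reverse strand 103 bases before the start. TATAAA, the TATA box, found in 13.6% of all windows, began 25 bases before the start in Cyr61, 26 before it in Postn and 126 before it in Tnc. The SMAD motif CAGACA, found in 21.0% of windows, was read on the reverse strand as TGTCTG 1 time in Tnc and 2 times in Sparc. The AP-1 motif TGANTCA (7.81% of windows), a STAT6 motif of TTC and GAA with 4 bases between them (6.95%) and the CArG box bound by SRF (1.63%) matched none of these 5 windows, and none of the 6 motifs matched that of Tgfbi or the window used for Spp1. That Spp1 window, 104435942 to 104436241, lies inside the gene, which begins at 104435118, and matches in its other listed window are not given. Ecm1 had an AP-1 motif, a TATA box and a SMAD motif. A match describes the letters of these windows and not a bound site.

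Osteopontin, an integrin and CD44 ligand of bone and of activated macrophages, passed in no comparison in the fit over all replicates without a block, but its genotype difference depended on the libraries. Spp1 (chromosome 5, 104435118 to 104441050, plus strand) was at 2265, 2311, 2478, 1929, 1995 and 1972 CPM in KO M2 replicates 1 to 6 and at 2393, 2959, 2866, 2107, 2347 and 2274 CPM in KO M0. In WT M2 it was at 2164, 1610.4 (the lowest of all 24 libraries), 2763, 3185, 3921 and 3396 CPM, and in WT M0 at 2481, 2287, 3349, 4179.8, 4871 and 4296 CPM. WT replicates 4 to 6 lay above every KO library, while WT replicates 1 and 2 lay within or below the KO range of their state. The log2 fold change in KO was -0.40 with IL-4 (SE 0.19, adjusted p = 0.357, edgeR) and -0.52 without it (SE 0.19, adjusted p = 0.141). In replicates 4 to 6 alone Spp1 was lower in KO, by log2 fold changes of -0.83 (adjusted p = 2.01e-06) and -0.98 (adjusted p = 3.10e-07), whereas in replicates 1 to 3 alone these were 0.11 (adjusted p = 0.979) and 0.04 (adjusted p = 0.962). Without the WT libraries of cultures 1 and 2 they were -0.62 (adjusted p = 8.42e-04) and -0.74 (adjusted p = 1.10e-04). With IL-4 Spp1 had log2 fold changes of -0.21 in KO (SE 0.19, adjusted p = 0.495) and -0.33 in WT (SE 0.19, adjusted p = 0.248), and the M2 level was below the M0 level in 6 of 6 cultures of each genotype. In replicates 4 to 6 alone the fall with IL-4 in WT passed (-0.34, adjusted p = 0.00487), and in 1 to 3 alone the value was -0.29 (adjusted p = 0.464). Osteoclasts also make osteopontin, and the sum of 9 osteoclast markers was higher with IL-4, at 1908 to 2742 CPM in KO M2 against 1025 to 1550 in KO M0, and at 2090 to 2738 in WT M2 against 1343 to 2049 in WT M0. Most of this sum is Atp6v0d2, a proton pump subunit gene, which averaged 2272 CPM in KO M2 against 1123 in KO M0, and 2227 in WT M2 against 1491 in WT M0. Of the other markers Ctsk, Acp5, Dcstamp and Ocstamp rose with IL-4 in both genotypes, Mmp9 and Nfatc1 passed in neither (log2 fold changes of -0.19 to -0.07), and Oscar and Calcr were at or near 0. The part of these cells in the levels of Spp1 was not tested.

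Ecm1, a secreted glycoprotein that binds matrix proteins, passed in no comparison. It lies on chromosome 3 (95734147 to 95739569, minus strand) and was at 46.1 to 64.4 CPM (median 47.9) in KO M2, 40.2 to 50.9 (45.2) in KO M0, 41.2 to 77.0 (43.8) in WT M2 and 39.3 to 69.1 (52.1) in WT M0. The ranges of all groups overlapped, and in WT replicates 1 and 2 were the highest in both states, at 65.0 and 77.0 CPM in M2 and 69.1 and 63.8 CPM in M0. Its log2 fold changes were -0.02 (KO over WT with IL-4, SE 0.15), -0.21 (KO over WT without it, SE 0.15), 0.17 (IL-4 in KO, SE 0.15) and -0.02 (IL-4 in WT, SE 0.15), with adjusted p-values by edgeR of 0.993, 0.584, 0.493 and 0.954.

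The genes that followed genotype moved with the markers of stromal cells and fibroblasts. Of the 16 markers 14 were tested, but most of these averaged below 1 CPM in both KO groups and passed the count filter through WT, so that a count of those lower in KO is no measure of the list. Among the better measured ones, the collagen gene Col5a2 was lower by -3.38 (SE 0.19) and -3.39 (SE 0.19) on the log2 scale, and Bgn, a small proteoglycan, by -3.33 (SE 0.22) and -3.61 (SE 0.21). Within groups the match was partial. KO M0 replicate 1 had the highest sum of its group, 33.3 CPM against 16.02 in the next library, and was the highest in its group for 6 of the 6 genes that followed genotype, and KO M2 replicate 1 (25.7 CPM against 15.8) was the highest for 4 of the 6. WT M2 replicate 5 (235 CPM against 189) was the highest of its group for 3 of the 6, not for Thbs1, Sparc or Postn, and WT M0 replicate 5 (238 CPM against 203) for 4, not for Thbs1 or Ctgf. In bulk RNA fewer stromal cells and less RNA per cell cannot be told apart, and the part of the stromal cells in the results was not tested.

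Divided by the stromal sum of the same library, the genotypes overlapped for Cyr61, Ctgf, Tnc and Sparc in both states, and for Thbs1 in M2 and Fn1 in M0 cells, while the other genes had higher ratios in KO. The sum itself was 10.6 to 33.3 CPM in KO libraries and 145 to 238 in WT libraries. A gene that fell less in KO than the sum therefore has a higher ratio there, whatever its own change. The ratio of Cyr61 to the sum was 0.0238 to 0.0472 in KO M2, 0.0385 to 0.0891 in KO M0, 0.0332 to 0.0498 in WT M2 and 0.0491 to 0.0743 in WT M0, so the genotypes overlapped. The ratios of Ctgf and Tnc overlapped in the same way, with medians of 0.0796 in KO M2 and 0.0868 in WT M2 for Ctgf, and of 0.0747 and 0.0878 for Tnc. Sparc had median ratios of 0.156 in KO M2 against 0.106 in WT M2, and of 0.157 in KO M0 against 0.120 in WT M0, with overlapping ranges in M0 and M2. Postn did not overlap, at 0.103 to 0.239 in KO M2 against 0.0244 to 0.0381 in WT M2, and at 0.0513 to 0.136 in KO M0 against 0.0272 to 0.0440 in WT M0. Thbs1 had ratios of 3.31 to 6.68 in KO M2 against 1.14 to 5.14 in WT M2, and of 3.81 to 8.198 in KO M0 against 1.51 to 3.74 in WT M0. The ratio of Thbs1 was thus higher in KO without overlap in M0 cells and overlapped in M2 cells. Fn1 had ratios of 4.71 to 22.2 in KO M2 against 0.972 to 2.81 in WT M2, with overlap in M0 cells, and Spp1, Tgfbi and Ecm1 had ratios in KO above every ratio in WT in both states.

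**Figure D4:**
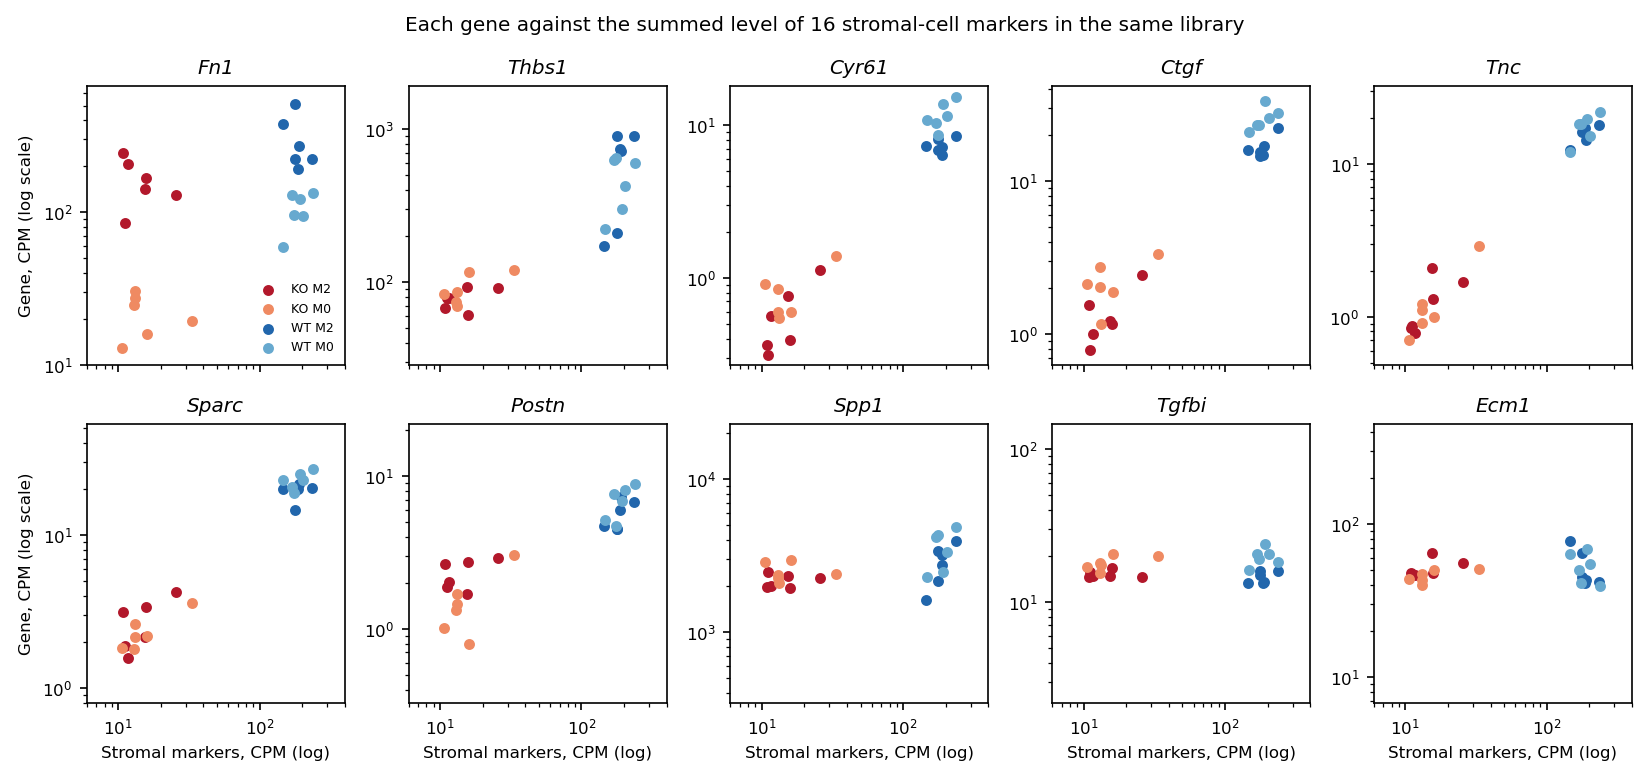
CPM of each of the 10 genes (y axis, log scale, the same span of fold for every gene) against the summed CPM of 16 stromal-cell markers (x axis, log scale) in the same library, coloured by group. Cyr61, Ctgf, Tnc and Sparc are high and low together with the stromal sum, Fn1 separates by IL-4 within each genotype, and the groups of Tgfbi and Ecm1 overlap between genotypes while the sum spans 10.6 to 238 CPM.

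Across the 24 libraries, the genes whose log2 CPM was most like that of each member, among 10098 candidates, were sought. These correlations are descriptions over libraries that share genotype and IL-4. The genes closest to Cyr61 included Ctgf (Pearson r = 0.99) and Col5a2 (0.98). Those closest to Ctgf included Cyr61 and the basement membrane collagen gene Col4a1 (0.98). Tnc was closest to Bgn, the fibrillin gene Fbn1 and the collagen chaperone gene Serpinh1 (0.98 each). Sparc was closest to Fstl1, a secreted relative of Sparc, to Bgn and to the smooth muscle actin gene Acta2 (0.98 each), and Postn to Col1a2 (0.93), Sparc (0.93) and Fstl1 (0.92). Thbs1 was closest to the adhesion gene Cadm1 (0.93), Col12a1 (0.92) and the predicted gene Gm42427 (0.92). Cadm1 averaged 83.1 CPM in KO M2, 96.8 in KO M0, 307 in WT M2 and 312 in WT M0, a pattern at a far higher level than that of Col12a1, at 1.20, 1.43, 17.8 and 24.2 CPM. Fn1 was closest to the channel gene Lrrc8d, to Ckap4 and to the lectin gene Cd22 (0.94 each), none of them a gene of the stromal list. Spp1 (Tmem154, 0.90), Tgfbi (Evi2b, 0.86) and Ecm1 (Serf2, 0.86) had looser neighbours. Among the members themselves, r was 0.97 to 0.99 between Cyr61, Ctgf, Tnc and Sparc, 0.81 to 0.91 between Thbs1 and the 5 other genes lower in KO, and -0.47 between Fn1 and Tgfbi.

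Some other matricellular and matrix glycoprotein genes were also lower in KO. Of 41 listed, 17 were tested. MK2 loss lowered 9 of them and raised 1 with IL-4, and lowered 10 and raised 1 without it, with median log2 fold changes of -0.70 and -0.73, where 4.59% and 4.52% of all genes were called. Genes low in KO passed the count filter through WT here too, Fbn1 and Igfbp7 averaging below 1 CPM in both KO groups. The counts of those lower in KO are thus no measure of this list either. Fbn1 (log2 fold changes -3.54 and -3.36), Fstl1 (-2.37 and -2.69), Igfbp7, which binds insulin-like growth factors (-2.54 and -3.06), and the basement membrane gene Nid1 (-2.57 and -3.00) were among those lower in KO, at adjusted p-values of at most 1.97e-09 by edgeR. IL-4 raised 2 and lowered 3 of the 17 in KO and raised 1 and lowered 2 in WT, 29.4% and 17.6% of the 17, not far from the 23.6% and 16.4% of all genes. Among these were Lgals3, the galectin-3 gene (0.61 in KO and 0.53 in WT), and Gas6, a ligand of TAM receptors (-0.76 in KO and -0.65 in WT).

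Of 21 receptor genes listed for fibronectin and matricellular proteins, 19 were tested, and IL-4 raised 8 and lowered 4 in KO and raised 7 and lowered 3 in WT, or 63.2% and 52.6% of them, where 23.6% and 16.4% of all genes were called. Itgb3, the beta-3 integrin that binds fibronectin and osteopontin, rose by log2 fold changes of 1.77 in KO (SE 0.15, adjusted p = 3.27e-09, edgeR) and 1.41 in WT (SE 0.15, adjusted p = 2.42e-07). The osteopontin receptor gene Cd44 rose by 0.69 and 0.52, and the integrin gene Itgax by 2.32 and 1.70. Itga9, whose integrin binds tenascin-C and osteopontin, fell by 1.15 in KO (adjusted p = 2.87e-08) and by 0.66 in WT (adjusted p = 1.14e-04). MK2 loss raised 3 and lowered 1 of the 19 in each state (21.1%, against 4.59% and 4.52% of all genes), with median log2 fold changes of 0.09 with IL-4 and 0.03 without it. Itgam was higher in KO by 0.19 and 0.26, and Itgb7 by 0.69 and 0.75.

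Genes outside the 10 that respond to SRF, YAP or TGF-beta were lower in KO in part. Of 28 listed 24 were tested, and MK2 loss lowered 9 with IL-4 and 10 without it and raised 0 in either state (37.5% and 41.7% called, against 4.59% and 4.52% of all genes). Acta2 (log2 fold changes -2.80 and -3.39) was among them, and it was also among the closest neighbours of Sparc above. Several of the lowered genes averaged below 1 CPM in both KO groups and passed the count filter through WT. The counts of those lower in KO are therefore no measure of the list. IL-4 lowered 7 and raised 2 in KO and lowered 5 and raised 1 in WT (37.5% and 25% called, against 23.6% and 16.4% of all genes), Fos falling (-0.92 in KO and -0.86 in WT) and Egr2, itself induced by IL-4, rising (1.68 and 1.41). The alternative activation list served to check the treatment: of 16 genes listed 14 were tested, and 13 of these rose with IL-4 in either genotype. Several of those that rose averaged below 1 CPM in both M0 groups and passed the count filter through M2. This count is therefore no measure of the list. With IL-4, Mgl2, a lectin gene (log2 fold change 1.19), Irf4 (1.09) and the chemokine gene Ccl22 (1.37) on that list were higher in KO, and without IL-4 none of the 14 passed.

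Markers of further cell types were summed in the same way. Endothelial markers summed to 177 to 262 CPM in KO M2, 90.5 to 106 in KO M0, 128 to 185 in WT M2 and 55.3 to 75.3 in WT M0. Nearly all of this was Vwf, the von Willebrand factor gene, with means of 212 CPM in KO M2, 88.3 in KO M0, 136 in WT M2 and 54.6 in WT M0. Cdh5, the endothelial cadherin gene, averaged 0.222 CPM in KO M2, 0.459 in KO M0, 0.671 in WT M2 and 1.33 in WT M0, with lower means in KO in either state, a difference that was not tested. The other endothelial markers were mixed. Tie1, Emcn and Pecam1 had lower means in KO in both states. Tek (means of at most 0.0885 CPM) had higher means in KO in both, Kdr only without IL-4 and Esam only with it, and Cldn5 was at or near 0. Neutrophil markers summed to 75.7 to 267 CPM over all groups. Osteoblast markers summed to at most 15.6 CPM in any library, and those of dendritic cells, of T and NK cells, of B cells and of mast cells, basophils and eosinophils to at most 9.54 CPM. Nearly all of the osteoblast sum was Runx2, with means of 14.3 CPM in KO M2, 10.85 in KO M0, 12.4 in WT M2 and 11.2 in WT M0. Of the other osteoblast genes, Dmp1 was at 0 in all 4 groups, Sp7 in all but WT M0 and Bglap in KO M0 and WT M2.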

How the data were processed

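RNA-seq libraries of 24 samples in 4 groups were analysed. Per the labels, total RNA was made into libraries with a Kapa Hyperprep kit and read as 40 bp single ends. The authors deposited rounded expected counts for each gene and a GETMM signal, equal in the files to the count times a gene factor and a library factor (checked on 13047 genes). Tools listed in the submitters' processing notes are Bowtie2 2.3.4.1, RSEM 1.3.0, CASAVA 2.8.0 and edgeR, with the build mm10. The strandedness of the reads is not given in the sources, so a gene and an overlapping antisense gene cannot be told apart.

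Counts as deposited were filtered with filterByExpr (minimum count 10), which left 12797 genes and 99.8% of the counts, and scaled by TMM. They were tested with the robust quasi-likelihood fit of edgeR 4.0.16 (R 4.3.3) in 1 model of 4 groups, without a block, with 5 contrasts and Benjamini-Hochberg adjustment at 0.05. The fit was tested on simulated data. CPM use TMM library sizes, except sums of marker lists and ratios to them, which use total counts. GETMM served for levels between genes and for limma 3.58.1 on log2(GETMM + 1) or log2(GETMM + 0.1), as alternatives. DESeq2 1.42.0 was another. Between libraries of a group, chi-square per degree of freedom was 2.68 or more, so none was counted as a repeat of another.

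The members and lists were chosen with earlier results of these data known. Every member was named in each contrast. From the 4 pathway lists and 11 marker lists up to 4 genes with the smallest adjusted p could be named, and 3 most similar genes per member, sought where the average log2 CPM reached 2. A gene that this rule names is not reported here by name; it stays in the fits and the counts. Markers at or near 0, Atp6v0d2, Vwf, Lyz2, Pf4 and Runx2, which make most of a sum, and the markers set beside them were named after their values were seen. GENCODE M21 on the same build gave the coordinates, and RefSeq the promoter windows. The alternatives were other scaling, filters, tools, library sets and blocks.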

Additional observations from a re-analysis of the deposited data

Results flagged for a closer look

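Within the groups of 6, the highest and the lowest library of each of the 10 genes were compared with the rest of their group, and 3 of 40 groups held a library that stood apart by Dixon's criterion, of which chance alone gives about 5%. Ctgf was high in WT M2 replicate 5, at 22.3 CPM against a group median of 15.7. Tnc was high in KO M0 replicate 1, at 2.90 CPM against a median of 1.05, the library that also had the highest stromal marker sum of its group (33.3 CPM). Sparc was low in WT M2 replicate 6, at 14.7 CPM against a median of 20.02.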

How the results depend on the processing

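Over all alternatives 0 called directions reversed. Values that did not pass could change sign, as Spp1 did between genotypes (0.11 with IL-4 and 0.04 without it in replicates 1 to 3 alone, against -0.40 and -0.52), and Ecm1 with IL-4 (0.28 without cultures 1 and 2, against -0.02). The counts of genes lower in KO kept within 6 to 7 of 10 on leaving out each library. In replicates 1 to 3 alone they were 5 with IL-4 and 6 without it, and in replicates 4 to 6 alone 7 and 8. For IL-4 in WT, 4 of the 10 genes passed, or 1 in replicates 1 to 3 alone and 2 without the WT libraries of cultures 1 and 2 (replicates 1 and 2), the fit chosen after seeing the data. For IL-4 in KO, 3 passed, or 1 without the count filter, 1 without the 3 libraries numbered apart, 1 in replicates 1 to 3 alone, 1 in replicates 4 to 6 alone and 1 by limma without a filter, and from 1 to 3 on leaving out each library (1 without KO M0 replicate 2 or 6 or KO M2 replicate 2, 5 or 6). The difference between IL-4 responses passed for 0, or 1 (Fn1) in replicates 4 to 6 alone. Some of these fits held fewer libraries, and why the counts moved was not tested. Whether culture numbers pair the libraries is not given in the sources, and the main fit had no block. M2 and M0 libraries with the same number deviated together (r above 0.1) in 4 of 6 KO and 3 of 6 WT pairs. They correlated best with their own number in 3 of 6 KO and 2 of 6 WT pairs. These values do not settle the pairing. With the culture number as a block, 5 genes passed for IL-4 in KO, with Spp1 (-0.20, adjusted p = 0.00505) and Postn (0.63, adjusted p = 0.0146) added, and 5 in WT, with Spp1 added (-0.34, adjusted p = 9.47e-05). The replicate number as a block changed no call of the 10 genes. Fn1 with IL-4 was called lower in KO by DESeq2 (-0.88, adjusted p = 0.0352) and with the set of library numbers as a covariate (-0.95, adjusted p = 0.0456), and IL-4 on Cyr61 in WT did not pass by limma with a pseudocount of 0.1 (adjusted p = 0.0625). Over all genes, IL-4 in WT gave 2103 calls, or 857 in replicates 1 to 3 alone and 1240 without cultures 1 and 2, and IL-4 in KO 3024, or 1472 in replicates 1 to 3 alone. MK2 loss with IL-4 gave 588 calls, or 305, 1056 and 919 in replicates 1 to 3, in replicates 4 to 6 and with the set term. Without IL-4 it gave 579, or 956 in replicates 4 to 6 and 1044 with the set term. The responses differed in 0 genes, or 1 with DESeq2, 3 with limma, 2 with the culture block and 21 in replicates 4 to 6. The lowest KO counts, 3 to 12 per library for Cyr61, limit what could be detected in KO.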
